A study of Mus musculus with 25 samples.

Results

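The comparison described here is that of EKO with DKO aortas after 22 weeks of Western diet (WD), gene by gene. EKO are Apoe knockout mice, and DKO are mice that lack both Apoe and Apoa1, so every animal in the comparison lacks Apoe and the genotypes differ in Apoa1, the gene of apolipoprotein A-I. Both are labelled as C57/BL6J, and the study states that the mice were male and 8 weeks old when the diets began. The deletions are present in all tissues of the animal, and RNA of whole aorta does not show in which cells a difference arose. The comparison takes 6 of the 25 libraries of the series, 3 for each genotype, and the other 19 are the same genotypes on a normal laboratory diet (NLD) at 6 and 22 weeks and on WD at 6 weeks. Each library holds RNA of whole mouse aorta as FPKM, a level per gene scaled to the length of its transcripts and to the mapped reads of the library. Members are genes whose FPKM averages 1 or more across the 25 libraries, which are 12797 of the 23284 genes listed. The members nearest to this limit were Fam122b (a mean of 1.0 FPKM) and Maml3 (1.00007 FPKM), and the genes nearest below it were Ptpro (0.99949 FPKM) and Tmsb15b1 (0.99945 FPKM).

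Atherosclerotic plaques form where lipoproteins enter the arterial wall and are taken up by macrophages, which become lipid-laden foam cells. A foam cell delivers the lipoprotein to its lysosomes, where acid hydrolases free the cholesterol, and the cholesterol is then either stored as ester droplets or moved out of the cell. Apolipoprotein A-I is the main protein of HDL and takes up cholesterol that the transporter ABCA1 exports, while apolipoprotein E clears remnant lipoproteins from plasma. The libraries are of whole aortas, so more macrophages and more RNA per macrophage cannot be told apart in any result below.

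Replicate 2 of EKO on WD at 22 weeks has no values beyond chromosome 15 position 79417852 in the text order of the chromosomes (mm10). Its zeros were taken as missing, which leaves 2 EKO values, those of replicates 1 and 3, for 8775 of the 12797 genes. The EKO libraries are labelled as re-analyses of earlier samples and the DKO libraries are not, so a difference in handling and the genotype cannot be told apart. The FPKM sums were 448239 and 524506 in EKO replicates 1 and 3 against 360421 to 401043 in DKO, 508235 to 556933 in EKO on NLD at 22 weeks and 369783 to 415555 in the remaining libraries. Xist, an RNA of the inactive X chromosome in females, was at 17.6 FPKM or more in 10 of the 24 libraries with a value, EKO replicate 1 and DKO replicate 3 among them, and at most 1.35 FPKM in the other 14. Ddx3y, a gene of the Y chromosome, was at most 0.174 FPKM in those 10 and at least 13.1 FPKM in the other 14. Those 10 libraries thus have the levels of female tissue, unlike the male sex that the study states. Replicate 1 of DKO stood apart from the other DKO libraries and had the lowest weight, 0.328, when limma weighted the 25 libraries. Acta2, smooth muscle actin, the defining gene of arterial smooth muscle, was at 434 FPKM or more in the 5 libraries with a value. The replicates carry only a number, and nothing states that they came from separate cages or days. The p-values and standard errors measure the spread between libraries within groups, taken over all 25 libraries and moderated across genes. A standard error below is thus not the scatter of the values printed beside it.

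Of the 12797 genes, 2376 were called higher in EKO, which is 18.6% of all, and 375 were called lower, which is 2.93% (limma on log2(FPKM + 1), Benjamini-Hochberg adjusted p under 0.05). Differences below are EKO minus DKO on the log2(FPKM + 1) scale with their standard error (SE), a scale that understates the change of genes with low FPKM. The change was at least 2-fold for 733 of the higher and 166 of the lower genes. The values of the groups did not overlap for 3808 genes with EKO above DKO (29.8%) and 1005 with EKO below (7.85%). The median difference over all genes was 0.10, and after rescaling each library by its median ratio to the others it was 0.01. That rescaling moved the calls to 1625 higher and 566 lower. Among the 4022 genes with 3 EKO values, 834 were called higher and 98 lower, and among those with 2 EKO values 1542 and 277. With the zeros of the partial library kept as deposited, 439 genes were called higher and 297 lower. In a fit of the 6 libraries alone 825 genes were called higher and 132 lower, and Spp1, Ctsf, Atp6v0e2, Tfe3, Mitf, Fdft1, Ccl21a, Nos2, Eln, Lum, Postn, Fn1, Ltf, Mmp9, Per1 and Srp14, described below as called, did not pass there.

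A first set of genes separated EKO from DKO libraries at 22 weeks on both diets. Rpl21, a protein of the large ribosomal subunit, measured 241 and 206 FPKM in EKO and 2.05, 2.98 and 3.06 FPKM in DKO. The EKO values were all above those of DKO, with a difference of 5.93 ± 0.16 (adjusted p = 8.0e-16) on WD, 5.78 ± 0.14 on NLD at 22 weeks and 0.18 ± 0.14 on WD at 6 weeks. Wdr92, a subunit of a prefoldin-like chaperone complex, measured 81.2, 58.2 and 55.2 FPKM in EKO and 2.66, 2.88 and 2.14 FPKM in DKO, a difference of 4.2 ± 0.13 on WD and 3.78 ± 0.13 on NLD at 22 weeks. Zfp488, a zinc finger protein gene, was at 10.4, 10.4 and 10.0 FPKM in EKO and listed at 0 in the 3 DKO libraries. Aldoart2, an aldolase gene known from testis, went the other way with 0.0374, 0.0381 and 0.0313 FPKM in EKO and 108, 40.9 and 77.1 FPKM in DKO, a difference of -6.10 ± 0.32 (adjusted p = 1.4e-11), and on NLD it was -6.10 ± 0.32. Csl, a citrate synthase-like gene, measured 0.319, 0.537 and 0.486 FPKM in EKO and 78.0, 28.7 and 60.2 FPKM in DKO (difference -5.18 ± 0.39). On WD at 6 weeks the differences were -0.17 ± 0.13 for Wdr92, 0.01 ± 0.09 for Zfp488, -0.37 ± 0.32 for Aldoart2 and -0.13 ± 0.39 for Csl. None of these passed the threshold. Of the 50-nt stretches of these genes, 14.9% for Rpl21, 16.6% for Wdr92, 15.6% for Zfp488, 6.7% for Csl and 0.3% for Aldoart2 were also found in transcripts of another gene.

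The cytosolic ribosomal proteins belonged to the same set. Of 78 measured ribosomal protein genes, 68 rose (35 in the fit of the 6 libraries) and 1, Rpl34, fell by 4.47 on the log2 scale (13 and 6.21 FPKM in EKO and 180.4, 254 and 239 FPKM in DKO), with a median difference of 1.03, and on NLD at 22 weeks 71 rose, with a median of 1.15. At 6 weeks their median was 0.11 on WD and -0.04 on NLD, with 1 called higher on each diet. Only 5 of the 78 share under 5% of their stretches with other transcripts, and 2 of these 5, Rps3 and Rps24, rose. The proteasome, which degrades ubiquitin-tagged proteins, had 17 of 36 subunits higher on WD (6 in the fit of the 6 libraries) and 15 on NLD at 22 weeks. Psma3, one of its core subunits, measured 63.4, 69.1 and 66.2 FPKM in EKO and 24.1, 20.3 and 26.8 FPKM in DKO, a difference of 1.45 ± 0.14 (adjusted p = 2.0e-07) that was 1.30 ± 0.14 on NLD. Among proteasome subunits that share under 5% of their stretches 5 of 22 rose. Gapdh, the glycolytic enzyme, measured 668 and 1310 FPKM in EKO and 65.6, 25.5 and 44.0 FPKM in DKO, and its difference of 4.45 ± 0.38 was smaller than the 5.29 ± 0.34 on NLD, with a difference between diets of -0.85 ± 0.50 (adjusted p = 0.33). At 6 weeks the difference of Gapdh was -0.31 ± 0.34 on WD and -0.31 ± 0.31 on NLD, neither past the threshold. Other transcripts share 25.1% of the stretches of Gapdh. Of protein-coding genes that share under 5% of stretches with other transcripts, 1446 of 8842 rose (16.4%), against 810 of 3242 (25%) of those that share 5% or more.

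Macrophage markers were higher in EKO. Of 15 measured markers of macrophages in general, 13 rose and none fell, with a median difference of 1.77, against 18.6% of all genes and a median of 0.10. Cd68, a lysosomal glycoprotein of macrophages (chromosome 11, 69664213 to 69666170), measured 294, 267 and 443 FPKM in EKO and 38.3, 66.9 and 61.3 FPKM in DKO. Its lowest EKO value was above its highest DKO value, and the difference was 2.57 ± 0.40 (adjusted p = 8.6e-05). Lyz2, the lysozyme of myeloid cells, measured 3712, 3232 and 5010 FPKM in EKO and 883, 788 and 796 FPKM in DKO, a difference of 2.25 ± 0.41 (adjusted p = 4.1e-04), with 15.4% of its stretches shared. Mpeg1, a pore-forming protein of macrophages, measured 219 and 234 FPKM in EKO and 27.0, 36.9 and 50.6 FPKM in DKO (difference 2.58 ± 0.45). C1qb, a chain of complement C1q made by macrophages, measured 565 and 738 FPKM in EKO and 108, 161 and 142 FPKM in DKO (difference 2.25 ± 0.40). For all of these the groups did not overlap, and replicate 1 of DKO was lowest for Cd68, Mpeg1 and C1qb but highest for Lyz2. Between 9 and 13 of the markers rose when any 1 of the 6 libraries was left out, and 10 rose in the fit of the 6 libraries alone. Markers of resident adventitial macrophages did not share this pattern, with 1 of 11 called higher, none lower and a median of -0.21. Without DKO replicate 2 there were 3 higher, and without DKO replicate 3 there were 2 lower. That 1 member was Folr2, a folate receptor, at 62.2 and 56.8 FPKM in EKO and 26.6, 34.1 and 23.0 FPKM in DKO, a difference of 1.08 ± 0.29 (adjusted p = 0.011) that no longer passed without EKO replicate 1 (1.02, adjusted p = 0.079). Other transcripts share 52.6% of the stretches of Folr2.

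**Figure D1:**
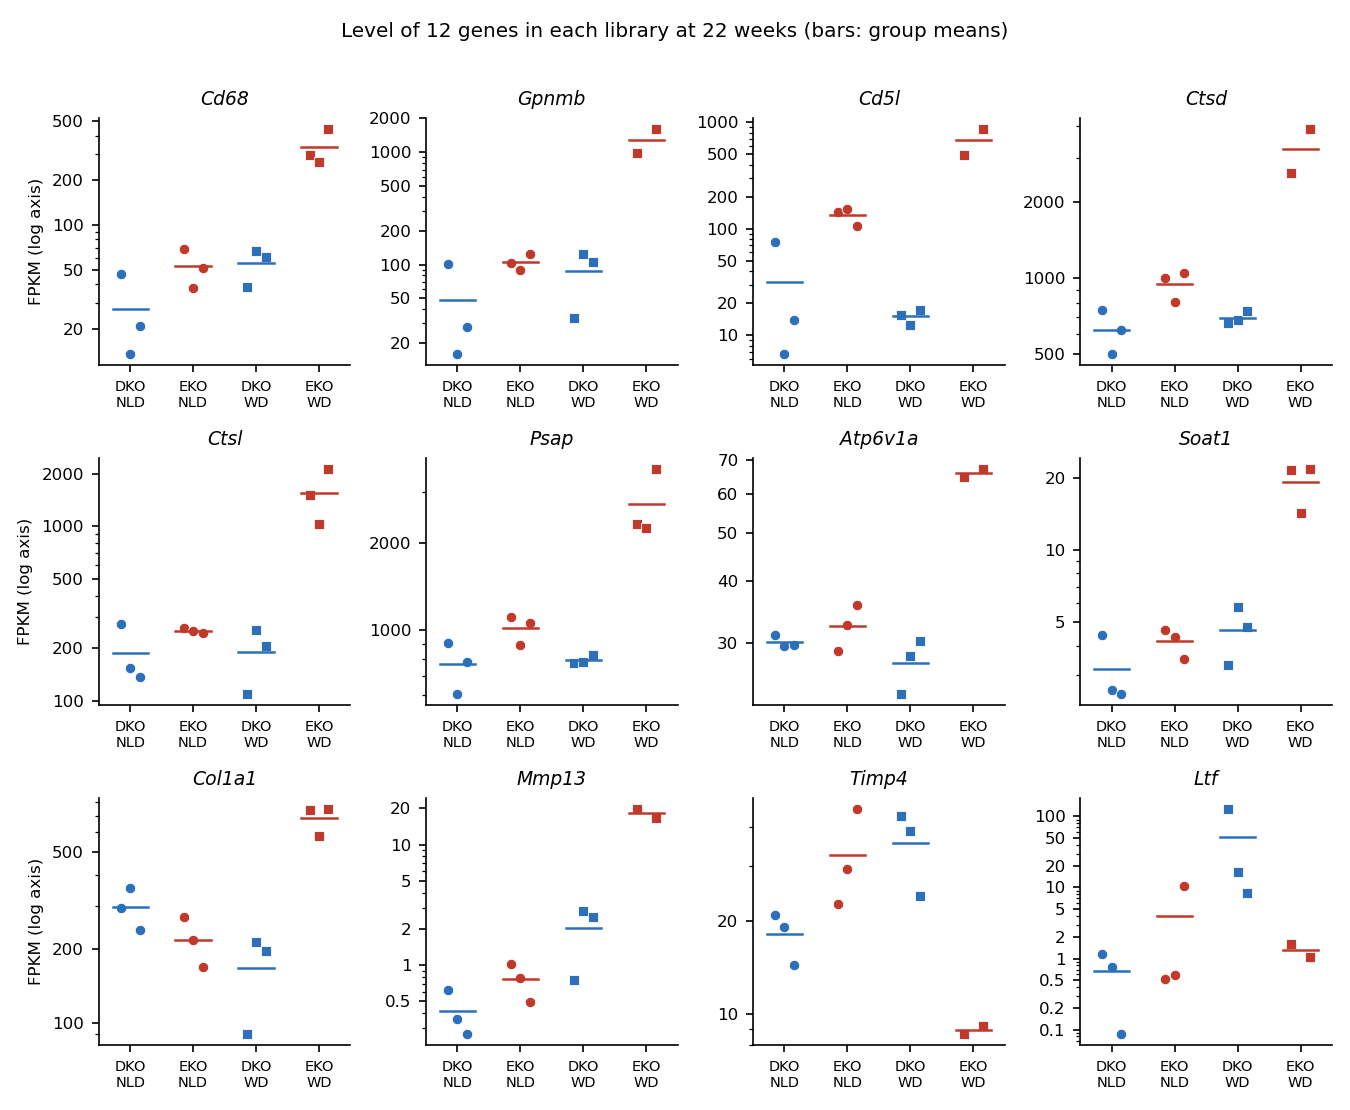
FPKM of 12 genes (log axis) in each library of EKO and DKO on WD and on NLD at 22 weeks, 1 point per library and a bar at each group mean. Cd68 in EKO on WD sits between 267 and 443 FPKM against 38.3 to 66.9 FPKM in DKO on WD, Ctsd at 2623 and 3904 FPKM against 667 to 743 FPKM, and Ltf in the opposite order at 1.05 and 1.61 FPKM against 8.24 to 128 FPKM.

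The genes of lipid-laden macrophages had a median difference of 2.24, with 23 of 28 higher and none lower, against 18.6% and 2.93% of all genes. Cd5l, a secreted protein of macrophages that supports their survival, measured 488 and 862 FPKM in EKO and 15.5, 12.6 and 17.3 FPKM in DKO. EKO values lay far above those of DKO, with a difference of 5.34 ± 0.77 (adjusted p = 5.0e-05). Gpnmb, a membrane glycoprotein of lysosome-stressed macrophages (chromosome 6, 49036518 to 49058182), measured 982 and 1608 FPKM in EKO and 33.3, 124 and 105 FPKM in DKO, a difference of 4.03 ± 0.68 (adjusted p = 2.2e-04). Trem2, a lipid-sensing receptor, measured 174 and 246 FPKM in EKO and 10.9, 31.2 and 25.8 FPKM in DKO (difference 3.26 ± 0.61). Itgax, the integrin chain CD11c, measured 63.8 and 98.3 FPKM in EKO and 5.22, 10.7 and 9.82 FPKM in DKO (difference 3.12 ± 0.48). For all 4 the lower EKO value was above the highest DKO value. The 5 that did not pass were Fabp4, Lpl, Cd36, Plin2 and Apoc1, of which the first 4 are also genes of adipocytes. Fabp5, a fatty acid binding protein, measured 673 and 933 FPKM in EKO and 83.9, 52.9 and 102 FPKM in DKO, a difference of 3.35 ± 0.38 (adjusted p = 2.9e-06). Lgals3, galectin-3, measured 729, 483 and 684 FPKM in EKO and 49.2, 113 and 103 FPKM in DKO (difference 2.89 ± 0.47). The called count was 21 to 23 when any library was left out, and 19 in the fit of the 6 libraries.

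Spp1, osteopontin, a secreted matrix protein, measured 6459 and 6317 FPKM in EKO and 121, 624 and 774 FPKM in DKO, and the spread among DKO is wide, with replicate 1 lowest. The difference of 4.04 ± 1.28 passed with an adjusted p of 0.031, but without DKO replicate 1 it was 3.20 (adjusted p = 0.128) and it did not pass without EKO replicate 1 (4.02, adjusted p = 0.126) or EKO replicate 3 (4.05, adjusted p = 0.121) either. Macrophage and foam cell lists together hold 43 measured genes, of which 36 rose. Their median difference was 1.97 on WD, 0.68 on NLD at 22 weeks and -0.10 on WD at 6 weeks. With EKO values in all 3 replicates, 10 of 10 rose.

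Lysosome genes were higher in large number. Many of them are regulated by the transcription factors TFEB, TFE3 and MITF, which bind a motif in lysosomal promoters known as the CLEAR element, with the core TCACGTGA. Because the members rose together, their promoters were searched for TCACGTGA, a palindrome and so the same on both strands, from 250 bases before to 50 bases after each RefSeq start. It was found for 13 of the 87 measured lysosome and proton pump genes that have such a window (14.9%), against 2.2% of all 9909 tested genes with one. The core CACGTG, which lies inside TCACGTGA, was found for 27.6% against 11.7%. Among the members called higher 10 of 62 held TCACGTGA (16.1%), and among those that did not pass 3 of 23 (13%). A match is a run of letters in the reference and not a measured site. The element is known from lysosomal promoters, so its share in lysosome lists cannot show why the members rose. The windows below were chosen among members called higher here and in the test of the difference between the diets. Only windows that hold TCACGTGA were taken, so its presence in them was fixed by that choice. The 250 bases before the start of Ctsd (cathepsin D, chr7:142387828-142388077, minus strand), Gla (alpha-galactosidase A, chrX:134601006-134601255, minus strand) and Atp6v1a (a proton pump subunit, chr16:44139260-44139509, minus strand) are shown because the values of these genes follow, from RefSeq on GRCm38.p6, with TCACGTGA in capitals.
Ctsd: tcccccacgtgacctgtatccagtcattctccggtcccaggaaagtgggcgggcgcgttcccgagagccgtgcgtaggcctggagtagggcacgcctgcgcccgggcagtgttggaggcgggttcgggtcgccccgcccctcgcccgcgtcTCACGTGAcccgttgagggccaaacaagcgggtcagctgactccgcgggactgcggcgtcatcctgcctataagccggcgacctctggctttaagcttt
Gla: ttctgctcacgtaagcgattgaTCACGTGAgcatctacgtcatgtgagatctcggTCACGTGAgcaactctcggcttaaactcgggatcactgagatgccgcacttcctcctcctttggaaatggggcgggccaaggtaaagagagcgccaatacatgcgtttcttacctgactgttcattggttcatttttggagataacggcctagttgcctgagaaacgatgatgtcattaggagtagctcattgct
Atp6v1a: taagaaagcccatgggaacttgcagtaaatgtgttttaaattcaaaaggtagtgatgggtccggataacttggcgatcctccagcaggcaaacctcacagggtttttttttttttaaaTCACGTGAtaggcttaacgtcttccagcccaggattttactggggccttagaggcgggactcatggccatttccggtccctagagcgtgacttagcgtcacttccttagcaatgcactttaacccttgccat

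The lysosomal proteases came first, with 15 of 18 measured members higher and 1 lower and a median difference of 1.04. Over all genes the shares were 18.6% and 2.93%, here and for the lysosome and proton pump lists that follow. The member that fell was Ctsf, cathepsin F, at -0.32 ± 0.10 (adjusted p = 0.032), which is named after its value was seen and did not pass without EKO replicate 1 (0.247), DKO replicate 2 (0.0991) or DKO replicate 3 (0.0585). Ctsd, cathepsin D, an aspartic protease (chromosome 7, 142375910 to 142387827), whose window above holds 1 copy of the motif, measured 2623 and 3904 FPKM in EKO and 667, 681 and 743 FPKM in DKO. The EKO values lay well above the DKO values, which were close to each other, with a difference of 2.20 ± 0.20 (adjusted p = 1.9e-07). Ctsb, cathepsin B, a cysteine protease, measured 1228, 1062 and 1645 FPKM in EKO and 291, 320.1 and 365 FPKM in DKO, a difference of 1.99 ± 0.19 (adjusted p = 2.8e-07). Ctsl, cathepsin L, a further cysteine protease, measured 1508, 1036 and 2133 FPKM in EKO and 109, 254 and 207 FPKM in DKO, with the widest gap of the 3, 3.05 ± 0.32 (adjusted p = 9.5e-07). Lgmn, legumain, which matures other cathepsins, measured 398, 350 and 537 FPKM in EKO and 68.7, 104 and 103 FPKM in DKO (difference 2.21 ± 0.27). Ctss, cathepsin S, which trims the invariant chain of MHC class II, measured 1024 and 1158 FPKM in EKO and 82.1, 138 and 188 FPKM in DKO (difference 3.07 ± 0.57, adjusted p = 6.4e-04). DKO replicate 1 was the lowest DKO library for all 5. Transcripts of other genes hold 32.4% of the stretches of Ctsd, 26.3% of those of Ctsl and 12.1% of those of Ctsb, so their reads could be split in counting. Between 12 and 15 proteases rose with any library left out, and 10 in the fit of the 6 libraries.

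The hydrolases of sugars, lipids and phosphates showed the same direction, with 30 of 43 higher and none lower and a median of 0.77, and 18 higher in the fit of the 6 libraries. Psap, prosaposin, the precursor of the activators of sphingolipid hydrolases, measured 2322, 2258 and 3590 FPKM in EKO and 770.3, 781 and 823 FPKM in DKO. All EKO values lay above DKO, with a difference of 1.75 ± 0.19 (adjusted p = 1.2e-06). Gla, alpha-galactosidase A, which cleaves globotriaosylceramide and whose window holds 2 copies of the motif, measured 20.3 and 20.3 FPKM in EKO and 1.83, 4.35 and 4.56 FPKM in DKO, nearly equal in the EKO libraries, with a difference of 2.28 ± 0.26 (adjusted p = 3.8e-06). Glb1, beta-galactosidase, measured 21.9 and 31.3 FPKM in EKO and 4.82, 5.48 and 7.12 FPKM in DKO (difference 2.01 ± 0.23), and it also rose on NLD at 22 weeks (0.97 ± 0.21, adjusted p = 0.0048). At 6 weeks Glb1 was 1.02 ± 0.21 on WD (adjusted p = 0.054) and 0.84 ± 0.19 on NLD (adjusted p = 0.16), neither past the threshold. Of lysosomal membrane proteins 22 of 34 rose (15 in the fit of the 6 libraries) and none fell, with a median of 0.76. Cd63, a tetraspanin of late endosomes, measured 719, 533 and 747 FPKM in EKO and 81.5, 164 and 151 FPKM in DKO (difference 2.37 ± 0.26). M6pr, the receptor that carries newly made hydrolases to the lysosome, measured 73.3 and 83.5 FPKM in EKO and 39.4, 43.2 and 41.8 FPKM in DKO. Its difference was modest but its spread was small, at 0.90 ± 0.09 (adjusted p = 9.9e-07). Clcn7, a chloride-proton exchanger of the lysosome, measured 27.1 and 33.3 FPKM in EKO and 12.9, 14.6 and 12.7 FPKM in DKO (difference 1.11 ± 0.12).

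The vacuolar proton pump, which acidifies the lysosome, had 15 of 20 subunits higher (9 in the fit of the 6 libraries) and 1 lower, with a median of 0.68. The lower one, Atp6v0e2, is named after its value was seen (-1.06 ± 0.37, adjusted p = 0.0495), and it did not pass without EKO replicate 1 (0.349), EKO replicate 3 (0.0594), DKO replicate 2 (0.138) or DKO replicate 3 (0.101). Atp6v1a, its catalytic subunit (chromosome 16, 44085402 to 44139702), measured 64.7 and 67.2 FPKM in EKO and 23.8, 28.3 and 30.3 FPKM in DKO. EKO values were more than those of every DKO library by a wide margin for their spread, with a difference of 1.24 ± 0.12 (adjusted p = 4.7e-07), and on NLD at 22 weeks it was 0.10 ± 0.11 (adjusted p = 0.62). Atp6v0d2, a membrane-domain subunit found in macrophages and osteoclasts, measured 81.4 and 102 FPKM in EKO and 2.23, 9.27 and 9.80 FPKM in DKO, a far larger difference of 3.70 ± 0.58 (adjusted p = 1.1e-04). The factors of lysosome biogenesis themselves moved little, and 2 of 7 measured passed (28.6%, against 18.6% of all genes called higher). Tfe3 measured 15.1 and 18.6 FPKM in EKO and 12.1, 11.8 and 10.8 FPKM in DKO, a difference of 0.50 ± 0.11 (adjusted p = 0.0019), which did not pass without EKO replicate 3 (0.35, adjusted p = 0.068). Mitf measured 5.33 and 3.88 FPKM in EKO and 2.45, 3.21 and 3.08 FPKM in DKO, a difference of 0.51 ± 0.15 (adjusted p = 0.018), which did not pass without EKO replicate 1 (0.32, adjusted p = 0.27) or without DKO replicate 1 (0.42, adjusted p = 0.077). Over all lysosome and proton pump lists, 82 of 115 measured genes rose and 2 fell, with a median of 0.83, and without the 8 genes that are also on the macrophage or foam cell lists 74 of 107 rose. The rise of macrophage markers in the same libraries stands beside this count, and its part in it was not tested.

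**Figure D2:**
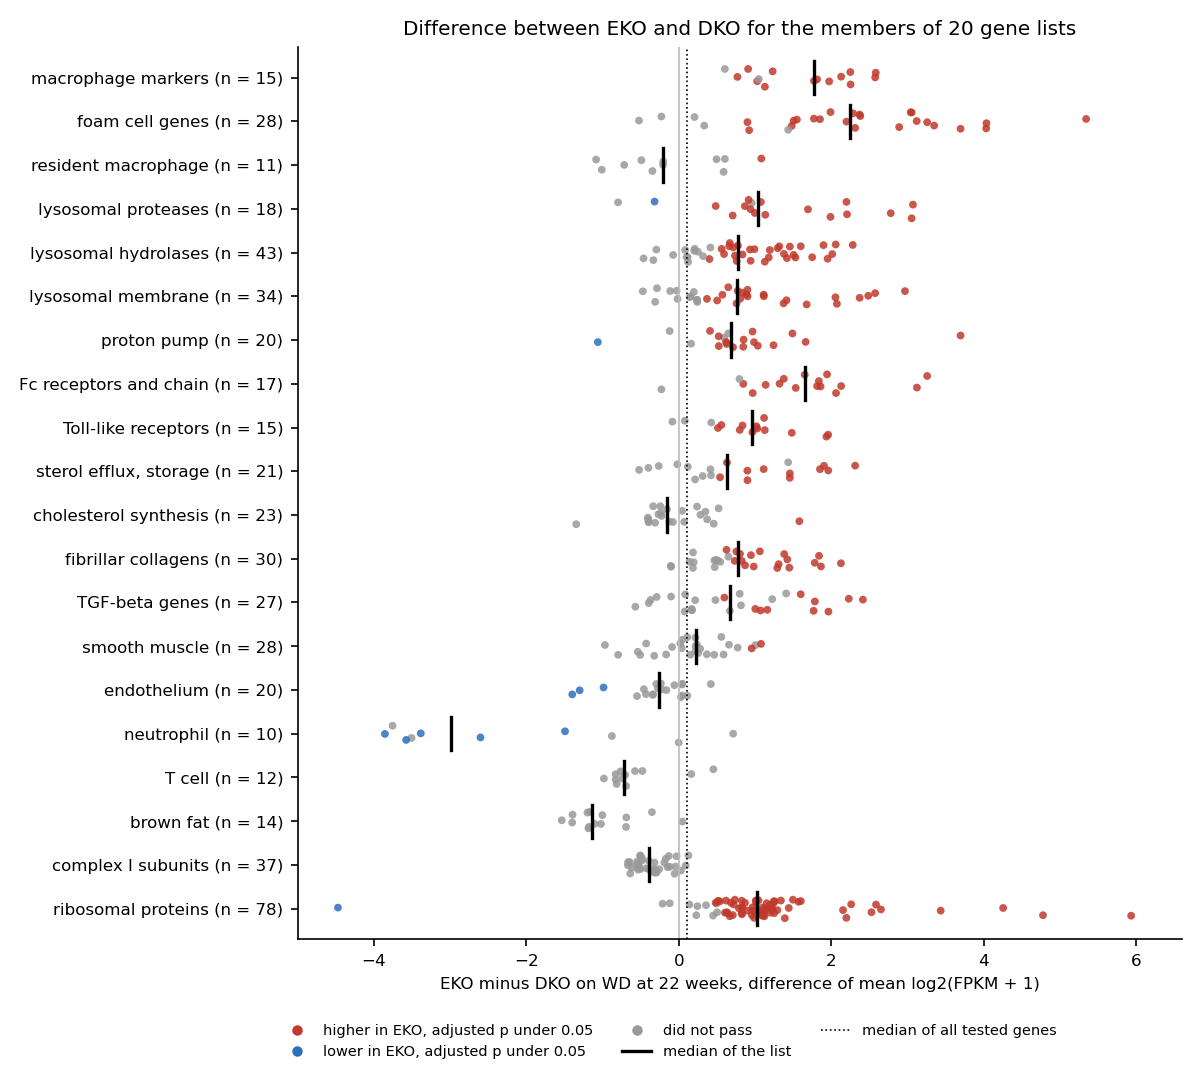
Difference between EKO and DKO on WD at 22 weeks (log2 of FPKM + 1) for the tested members of 20 gene lists, 1 point per gene, coloured by whether it was called higher, called lower or did not pass, with a black line at the median of each list and a dotted line at the median of all genes (0.10). Foam cell genes have a median of 2.24 and neutrophil markers one of -2.99, while complex I subunits, with none called, lie at -0.39.

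Genes of sterol storage and efflux rose in part, with 11 of 21 higher (52.4%, against 18.6% of all genes), none lower and a median of 0.63. In the fit of the 6 libraries 9 rose. Soat1, which esterifies cholesterol for storage in droplets, measured 21.7, 14.4 and 21.9 FPKM in EKO and 3.32, 5.80 and 4.78 FPKM in DKO. The groups did not overlap, with a difference of 1.85 ± 0.24 (adjusted p = 1.1e-05). Npc1, which moves cholesterol out of the lysosome, measured 22.0 and 25.5 FPKM in EKO and 10.8, 10.2 and 10.4 FPKM in DKO (difference 1.11 ± 0.14). Nceh1, a neutral hydrolase of cholesterol esters in macrophages, measured 23.4 and 22.1 FPKM in EKO and 6.41, 5.14 and 4.59 FPKM in DKO (difference 1.90 ± 0.26). Steps that store and steps that mobilise cholesterol were thus both higher. Abcg1, a transporter that exports cholesterol to HDL, measured 55.0 and 60.5 FPKM in EKO and 8.40, 12.2 and 12.3 FPKM in DKO, a difference of 2.31 ± 0.34 (adjusted p = 5.3e-05) that was also past the threshold on NLD at 22 weeks (1.21 ± 0.30, adjusted p = 0.015). Of 13 scavenger receptors 5 rose (Cd68, Cxcl16, Msr1, Colec12 and Scara3) and none fell, with a median of 0.34. That is 38.5% against 18.6% of all genes, and 3 rose in the fit of the 6 libraries. Msr1, scavenger receptor A, which takes up modified LDL, measured 36.9 and 41.5 FPKM in EKO and 4.79, 10.5 and 7.40 FPKM in DKO (difference 2.29 ± 0.40, adjusted p = 3.6e-04). Cxcl16, a membrane chemokine that binds oxidised LDL, measured 55.5, 58.6 and 66.7 FPKM in EKO and 9.29, 16.6 and 17.6 FPKM in DKO (difference 2.03 ± 0.29).

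Synthesis of cholesterol and of fatty acids did not move as a group. Of 23 cholesterol synthesis genes and SREBP2 targets 1 passed, with a median of -0.16, while 2 were higher without EKO replicate 1 and 1 was lower without EKO replicate 3 or DKO replicate 2. The gene that passed was Fdft1, squalene synthase, at 27.9, 26.8 and 44.6 FPKM in EKO and 16.6, 6.18 and 9.79 FPKM in DKO, a difference of 1.58 ± 0.34 (adjusted p = 0.002), and 26.5% of its stretches are shared with other transcripts. Of 19 fatty acid synthesis and desaturation genes 3 rose (Scd3, Scd4 and the elongase Elovl1), with a median of -0.01. That is 15.8%, below the 18.6% of all genes. Scd3, a stearoyl-CoA desaturase, measured 34.4 and 78.4 FPKM in EKO and 7.43, 1.52 and 4.25 FPKM in DKO, above DKO in both EKO libraries although those differ by a wide margin, with a difference of 3.46 ± 0.50 (adjusted p = 5.5e-05). Scd4, a paralog at a lower level, measured 10.9 and 24.2 FPKM in EKO and 3.16, 0.592 and 1.60 FPKM in DKO (difference 2.74 ± 0.40). Stearoyl-CoA desaturases are paralogs, and 6.6% of the stretches of Scd3 and 5.5% of those of Scd4 are shared. Igfbp2, an insulin-like growth factor binding protein, measured 70.8, 30.9 and 71.4 FPKM in EKO and 1.50, 6.57 and 6.14 FPKM in DKO (difference 3.42 ± 0.52, adjusted p = 6.8e-05).

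Fc gamma receptors and Toll-like receptors were higher for most members of their lists. The list of Fc gamma receptors and their signalling chain also holds other receptors, Clec7a and Sirpa among them. Of its 17 measured genes 15 rose, with a median of 1.65, and 13 to 15 rose with any library left out. Fcgr3, a low-affinity IgG receptor, measured 98.6, 88.6 and 125 FPKM in EKO and 23.1, 34.6 and 26.5 FPKM in DKO. DKO and EKO values did not overlap, with a difference of 1.86 ± 0.29 (adjusted p = 1.0e-04). Clec7a, dectin-1, a receptor of beta-glucan, measured 39.8 and 73.6 FPKM in EKO and 3.55, 5.57 and 7.50 FPKM in DKO (difference 3.12 ± 0.46). Sirpa, an inhibitory receptor that binds CD47, measured 104 and 139 FPKM in EKO and 23.2, 33.9 and 28.3 FPKM in DKO (difference 2.06 ± 0.29). Of 15 Toll-like receptors and their co-receptors 12 rose, with a median of 0.97, but 6 rose without EKO replicate 1 and 8 without EKO replicate 3 or without DKO replicate 1, and 4 in the fit of the 6 libraries. Cd180, a Toll-like receptor homolog of B cells and macrophages, measured 15.7, 14.5 and 19.1 FPKM in EKO and 3.61, 2.91 and 3.89 FPKM in DKO (difference 1.96 ± 0.30, adjusted p = 6.3e-05). Tlr13, an endosomal receptor of bacterial RNA in mice, measured 16.9 and 14.1 FPKM in EKO and 2.31, 4.203 and 3.60 FPKM in DKO (difference 1.94 ± 0.29). Most complement genes and chemokine receptors did not pass. Of 24 complement components and receptors 6 rose (25%), with a median of 0.41, and of 8 chemokine receptors 2 rose (25%), with a median of 0.61. Both shares are near the 18.6% of all genes. C3ar1, the receptor of complement fragment C3a and 1 of these 6, measured 40.9 and 41.3 FPKM in EKO and 2.96, 7.18 and 8.46 FPKM in DKO (difference 2.64 ± 0.40). Smaller shares were called of interferon-stimulated and MHC class II genes. Of 35 interferon-stimulated genes 3 rose (Oas1a, Oas1g and Ifitm2), and of 11 MHC class II genes 2 (Ctss and Ifi30), shares of 8.6% and 18.2% beside the 18.6% of all genes. Their medians were 0.27 and 0.65, with a difference above 0 for 26 of the 35 and 9 of the 11. The summed MHC class II genes were 1974 and 2582 FPKM in EKO replicates 1 and 3 against 662 to 1153 FPKM in DKO. No interferon-stimulated gene was called higher without EKO replicate 1, EKO replicate 3 or DKO replicate 3, and 1 was without DKO replicate 1 or DKO replicate 2. Of the MHC class II genes 1 rose without EKO replicate 3.

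Of 15 measured CC chemokines 6 rose (40%, against 18.6% of all genes) and 1 fell, with a median of 0.92. But the higher count was 3 without EKO replicate 2 and 4 without EKO replicate 3, DKO replicate 1 or DKO replicate 3. Ccl3, a chemokine that attracts monocytes and T cells, measured 8.48, 9.19 and 10.99 FPKM in EKO and 0.618, 2.41 and 2.33 FPKM in DKO, with no overlap and a difference of 1.99 ± 0.34 (adjusted p = 2.2e-04). Ccl4, its close relative, measured 7.53, 10.2 and 10.3 FPKM in EKO and 0.926, 0.980 and 2.81 FPKM in DKO (difference 2.07 ± 0.31). The member that fell, Ccl21a of lymphoid tissue, measured 19.1 and 0.0873 FPKM in EKO and 27.3, 32.0 and 9.05 FPKM in DKO, so the groups overlap. Its difference of -2.17 ± 0.75 (adjusted p = 0.046) was -4.28 without EKO replicate 1 and -0.07 without EKO replicate 3 (adjusted p = 0.958), it also did not pass without DKO replicate 1 (0.131) or DKO replicate 2 (0.122), and other transcripts share 71.6% of its stretches. Of 16 inflammatory cytokines and inflammasome genes 8 rose (50%) and none fell, with a median of 0.83. Il18bp, which neutralises interleukin-18, measured 20.2 and 34.5 FPKM in EKO and 4.83, 3.85 and 3.75 FPKM in DKO (difference 2.42 ± 0.32, adjusted p = 1.9e-05). Of 10 NADPH oxidase and nitric oxide synthase genes 5 rose (50%), with a median of 0.83, and 5 also rose with each library left out in turn. Nos2, inducible nitric oxide synthase, measured 5.01, 6.09 and 5.05 FPKM in EKO and 2.09, 2.77 and 4.41 FPKM in DKO, where DKO replicate 3 lies near EKO. Its difference of 0.68 ± 0.18 (adjusted p = 0.011) did not pass without DKO replicate 1 (0.49, adjusted p = 0.074). Genes of iron and heme handling had 9 of 18 higher (50%), with a median of 0.68, and 4 higher in the fit of the 6 libraries. Hmox1, heme oxygenase, measured 76.1 and 82.4 FPKM in EKO and 15.8, 17.7 and 14.7 FPKM in DKO (difference 2.23 ± 0.36), and Ftl1, ferritin light chain, 4473 and 4695 FPKM in EKO and 883, 1222 and 1143 FPKM in DKO (difference 2.09 ± 0.25), with 58.4% of the stretches of Ftl1 shared.

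Matrix genes were higher in EKO on WD in part. Of 19 basement membrane genes 3 rose and none fell, with a median of 0.08. That is 15.8%, below the 18.6% of all genes. Of 19 proteoglycans 5 rose (26.3%) and none fell, with a median of 0.34, and 2 rose in the fit of the 6 libraries. Of 30 fibrillar collagens and crosslinking enzymes 18 rose and none fell, with a median of 0.78, but 7 rose without EKO replicate 1, 9 without DKO replicate 1 and 10 without EKO replicate 3. In the fit of the 6 libraries 3 of the 30 rose, and after the rescaling by median ratios 9. Col1a1, a chain of type I collagen (chromosome 11, 94936224 to 94953042), measured 738, 579.7 and 747 FPKM in EKO and 90.1, 213 and 197 FPKM in DKO. The DKO replicate 1 value was the lowest by far, and the groups did not overlap, with a difference of 2.13 ± 0.36 (adjusted p = 2.0e-04). Col3a1, type III collagen, measured 771, 588 and 675 FPKM in EKO and 102, 252 and 243 FPKM in DKO (difference 1.86 ± 0.32). Loxl2, a crosslinking enzyme, measured 36.7, 20.9 and 25.7 FPKM in EKO and 6.83, 12.0 and 10.2 FPKM in DKO (difference 1.42 ± 0.24), with 45.0% of its stretches shared. DKO replicate 1 was again the lowest library for both. Of 17 elastic fibre genes 5 rose (Eln, Ltbp2, Fbln2, Fbln5 and Lox), which is 29.4% against 18.6% of all genes, with a median of 0.74. The count was 2 without DKO replicate 1 or EKO replicate 1, 3 without EKO replicate 3 and 11 without DKO replicate 2. It was 1 in the fit of the 6 libraries. Eln, elastin, measured 1103 and 1410 FPKM in EKO and 111, 382 and 473 FPKM in DKO, a difference of 2.19 ± 0.49 (adjusted p = 0.0031) that was 1.55 without DKO replicate 1 and did not pass in the fit of the 6 libraries (adjusted p = 0.13). Lum, lumican, a proteoglycan of collagen fibrils, measured 540.3, 403 and 404 FPKM in EKO and 45.7, 207 and 215 FPKM in DKO. Its difference was 1.80 ± 0.42 (adjusted p = 0.0037) and 1.08 without DKO replicate 1, and it did not pass in the fit of the 6 libraries (adjusted p = 0.142). These matrix genes were low together with smooth muscle markers in DKO replicate 1, whose part in the result was not tested beyond leaving it out.

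Matrix metalloproteinases and their inhibitors moved in both directions, with 10 of 25 higher (40%) and 2 lower (8%) and a median of 0.60. Over all genes the shares were 18.6% and 2.93%. In the fit of the 6 libraries 4 of the 25 were higher and 1 lower. Mmp13, a collagenase, measured 19.8 and 16.7 FPKM in EKO and 0.757, 2.80 and 2.50 FPKM in DKO, far above every DKO value in both EKO libraries, with a difference of 2.75 ± 0.29 (adjusted p = 1.5e-06). Mmp14, a membrane-bound metalloproteinase, measured 82.8, 85.6 and 110.5 FPKM in EKO and 19.1, 37.8 and 29.7 FPKM in DKO (difference 1.69 ± 0.26, adjusted p = 8.1e-05). Timp4, a tissue inhibitor of metalloproteinases, measured 8.67 and 9.18 FPKM in EKO and 43.4, 39.0 and 24.1 FPKM in DKO. It fell, with a difference of -1.84 ± 0.36 (adjusted p = 9.8e-04). Of 27 TGF-beta ligands, receptors and targets 10 rose (37%) and none fell, with a median of 0.67. The higher count was 6 without EKO replicate 1 and 2 in the fit of the 6 libraries. Tgfb2, a ligand, measured 16.2, 7.18 and 10.4 FPKM in EKO and 1.61, 4.46 and 3.05 FPKM in DKO, where EKO replicate 1 was the highest and DKO replicate 1 the lowest, with a difference of 1.60 ± 0.29 (adjusted p = 3.6e-04). Postn, periostin, a matrix target, measured 301 and 203 FPKM in EKO and 30.0, 91.5 and 89.1 FPKM in DKO (difference 1.96 ± 0.37, adjusted p = 0.105 in the fit of the 6 libraries). Fn1, fibronectin, measured 856, 613 and 707 FPKM in EKO and 83.6, 356 and 312 FPKM in DKO, a difference of 1.77 ± 0.40 (adjusted p = 0.0029) that was 1.11 without DKO replicate 1 and did not pass in the fit of the 6 libraries (adjusted p = 0.124). Acta2, smooth muscle actin, measured 1892 and 1799 FPKM in EKO and 434, 1638 and 1089 FPKM in DKO and did not pass (1.01 ± 0.41, adjusted p = 0.092), and it passed at 1.42 (adjusted p = 0.013) without DKO replicate 2.

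Neutrophil markers were lower in EKO. Of 10 measured markers 5 fell and none rose, with a median of -2.99, against 2.93% of all genes called lower. Ltf, lactoferrin of neutrophil granules, measured 1.61 and 1.05 FPKM in EKO and 128, 16.7 and 8.24 FPKM in DKO. Both EKO values were below every DKO value, although DKO replicate 1 was far above the other DKO libraries, and the difference was -3.58 ± 0.92 (adjusted p = 0.0084). It was -2.47 without DKO replicate 1 and -4.37 without DKO replicate 3, and it did not pass without EKO replicate 3 (-3.40, adjusted p = 0.067). Retnlg, a resistin-like protein of neutrophils, measured 1.78 and 1.06 FPKM in EKO and 28.2, 68.7 and 19.4 FPKM in DKO (difference -3.86 ± 1.10, adjusted p = 0.017), and it did not pass without EKO replicate 1 (0.065), EKO replicate 3 (0.10) or DKO replicate 2 (0.055). Ngp, a neutrophil granule protein, measured 2.57 and 1.17 FPKM in EKO and 31.0, 38.1 and 18.6 FPKM in DKO (difference -3.39 ± 1.04, adjusted p = 0.025), and the call was lost without EKO replicate 1 (0.072), EKO replicate 3 (0.148), DKO replicate 1 (0.063) or DKO replicate 2 (0.061). Mmp9, a gelatinase stored in neutrophils, measured 1.64 and 1.49 FPKM in EKO and 6.87, 9.97 and 3.36 FPKM in DKO (difference -1.49 ± 0.38), and it did not pass without EKO replicate 3 (adjusted p = 0.057). S100a8, a calgranulin and the most abundant of them, measured 35.5 and 16.2 FPKM in EKO and 275, 470.2 and 177 FPKM in DKO and did not pass at -3.51 ± 1.26 (adjusted p = 0.057). No marker fell without EKO replicate 3, 2 fell without EKO replicate 1 or without DKO replicate 2, and 3 without DKO replicate 1. All 10 lie after the stop of the partial library, so each rests on 2 EKO values. The summed neutrophil markers were 134.5 and 117.8 FPKM in EKO against 440.9 to 1122.6 FPKM in DKO.

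A few endothelial genes were lower as well. Of 20 endothelial markers 3 fell (15%, against 2.93% of all genes) and none rose, with a median of -0.26, and none fell without EKO replicate 1 (at an unadjusted p under 0.05 the fit of all libraries had 3 of 20 in either direction). Gpihbp1, which anchors lipoprotein lipase on capillaries, measured 23.3, 51.6 and 35.2 FPKM in EKO and 87.1, 92.4 and 83.2 FPKM in DKO. EKO values were lower than all DKO values but spread over a wide range, with a difference of -1.30 ± 0.33 (adjusted p = 0.0076) that did not pass without EKO replicate 1 (-1.02, adjusted p = 0.059). Kdr, a VEGF receptor, measured 10.5 and 18.1 FPKM in EKO and 31.3, 42.5 and 41.5 FPKM in DKO (difference -1.40 ± 0.40, adjusted p = 0.016), and without EKO replicate 1 it was -1.03 (adjusted p = 0.195). Robo4, a guidance receptor of endothelium, measured 5.41 and 6.69 FPKM in EKO and 14.2, 13 and 11.7 FPKM in DKO, a difference of -0.99 ± 0.32 (adjusted p = 0.033) that did not pass without any 1 of the 5 libraries with a value (adjusted p from 0.0508 to 0.194). Pecam1, the most used marker of endothelium, overlapped between the groups at 114, 104 and 127 FPKM in EKO and 89.4, 258 and 133 FPKM in DKO. Of 18 circadian clock genes 1 fell (5.6%, against 2.93% of all genes), with a median of -0.23. Per1, a clock repressor, measured 20.1, 10.1 and 9.05 FPKM in EKO and 24.9, 30.3 and 26.1 FPKM in DKO (difference -1.08 ± 0.28, adjusted p = 0.0086), where EKO replicate 1 lies near DKO, and it did not pass without EKO replicate 3 (-0.88, adjusted p = 0.063). None of 37 complex I subunits, 41 subunits of complexes II to V and 19 enzymes of the tricarboxylic acid cycle passed in either direction, with medians of -0.39, -0.26 and -0.42 (at an unadjusted p under 0.05 these were 2, 4 and 1 genes). Without DKO replicate 2, however, 4 complex I, 2 complex II to V and 1 tricarboxylic acid cycle genes were called lower, and of complexes II to V 2 were lower without EKO replicate 3 and 2 higher without DKO replicate 1.

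The summed markers of cell types of the aorta and its surroundings varied between single libraries as well as between genotypes. The summed macrophage markers were 6252 and 8308 FPKM in EKO replicates 1 and 3 against 1447 to 1620 FPKM in DKO, which is a gap wider than the spread of either group. The summed smooth muscle markers were 7687 and 7545 FPKM in EKO against 3250, 7641 and 5200 FPKM in DKO, with replicate 1 lowest. Of 28 smooth muscle genes 2 rose (Myl6 and Actg2), with none left without EKO replicate 1, EKO replicate 3 or DKO replicate 1, 1 without DKO replicate 3 and 5 without DKO replicate 2. Those 2 are 7.1% of the list, below the 18.6% of all genes. B cell markers summed to 18.0 and 22.2 FPKM in EKO and to 201.2, 10.05 and 6.54 FPKM in DKO, so DKO replicate 1 carried nearly all of them. Skeletal muscle markers followed the same library, with 1014 FPKM in DKO replicate 1 and 89.2 to 163 FPKM in the other 4. Brown fat markers were 1156 and 3437 FPKM in EKO and 2839 to 5749 FPKM in DKO, and hemoglobin genes 14433 and 11887 FPKM against 2773 to 22566 FPKM. None of the 14 brown fat, 19 adipocyte, 12 T cell and 7 mesothelial markers passed, with medians of -1.14, -0.34, -0.72 and -1.20 (at an unadjusted p under 0.05, 5, 2, 0 and 4 genes). Of the brown fat markers 3 were called lower without EKO replicate 3 or without DKO replicate 2, and of the mesothelial markers 4 without DKO replicate 3 and 2 without EKO replicate 3. Of 17 fibroblast markers 1, Lum, passed, with a median of -0.02, beside the 18 collagen genes.

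**Figure D3:**
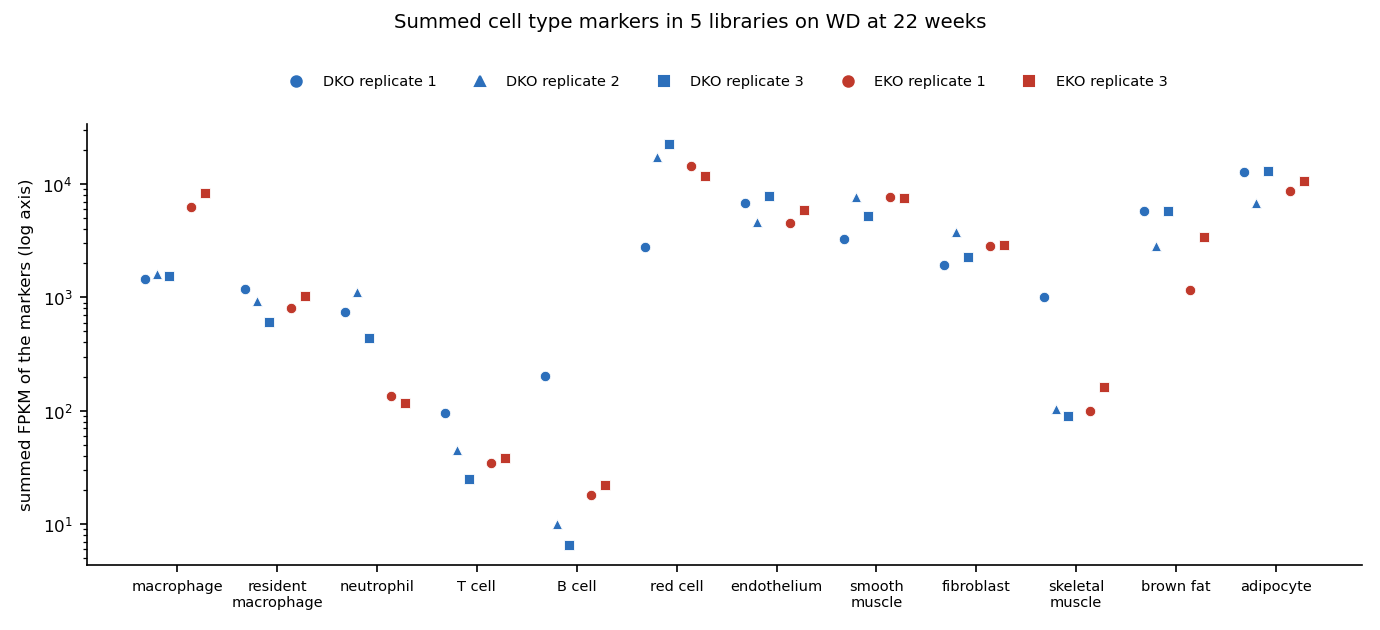
Summed FPKM (log axis) of the markers of 12 cell types in the 5 libraries with values for all genes, EKO replicates 1 and 3 and DKO replicates 1, 2 and 3 on WD at 22 weeks. Macrophage markers are at 6252 and 8308 FPKM in EKO against 1447 to 1620 FPKM in DKO, neutrophil markers at 134.5 and 117.8 FPKM against 440.9 to 1122.6 FPKM, and B cell and skeletal muscle markers are high in DKO replicate 1.

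The same contrast on NLD at 22 weeks called 821 genes higher (6.42%) and 185 lower (1.45%), together 7.86% of all, and on WD at 6 weeks 11 higher (0.086%) and 8 lower (0.0625%). Of the 2376 genes higher on WD at 22 weeks 517 were also called higher on NLD at 22 weeks, which is 21.8% of the WD genes and 63% of the NLD genes. The genes higher on WD had a median difference of 0.71 there and of 0.23 on NLD, and the 375 lower genes had medians of -0.91 and -0.08. These genes were chosen by their calls on WD, which favours smaller medians on NLD, so the medians do not compare the diets. Tested directly, the genotype difference on WD exceeded that on NLD for 457 genes (3.57%) and was below it for 105 (0.821%), together 562 genes or 4.39%. Between 22 and 6 weeks on WD it exceeded for 990 genes (7.74%) and was below for 159 (1.24%), together 1149 genes or 8.98%. The test between times also takes in the set that separated the genotypes on both diets at 22 weeks. Of the 78 ribosomal protein genes 55 exceeded and 1 was below, and of the 36 proteasome subunits 10 exceeded. Rpl21, Zfp488, Wdr92, Gapdh and Aldoart2 passed it too. Lysosome and proton pump genes account for 41 of those 457, out of 115 measured, and 1 is among the 105. For Ctsd the genotype difference on WD was larger than on NLD by 1.58 ± 0.27 (adjusted p = 0.004), for Ctsl by 2.56 ± 0.46 (adjusted p = 0.0051) and for Atp6v1a by 1.14 ± 0.16 (adjusted p = 0.0011). Of the 15 general macrophage markers none passed this test, and for Cd68 the excess was 1.50 ± 0.57 (adjusted p = 0.13). Among them 11 had an unadjusted p under 0.05. Of the foam cell genes 10 of 28 passed.

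Collagens differed between the diets in part. On NLD at 22 weeks the median of the 30 collagen and crosslinking genes was -0.27, with none called higher, and 9 of them passed the test between diets. Col1a1 averaged 219 ± 50.7 FPKM in EKO and 296 ± 57.9 FPKM in DKO on NLD (SD, n = 3 each), a difference of -0.44 ± 0.36 (adjusted p = 0.49), and the difference between diets was 2.57 ± 0.51 (adjusted p = 0.0086). Mmp14 was alike, with -0.33 ± 0.26 on NLD and a difference between diets of 2.02 ± 0.37 (adjusted p = 0.0053). Timp4 went from 0.77 ± 0.32 on NLD to the fall on WD, a difference of -2.61 ± 0.48 (adjusted p = 0.0066). Ltf averaged 3.91 ± 5.82 FPKM in EKO and 0.673 ± 0.543 FPKM in DKO on NLD (SD, n = 3 each), with -4.49 ± 1.23 between the diets (adjusted p = 0.045). Ribosomal proteins, in contrast, had 1 of 78 higher and 3 lower in the test between diets. On WD at 6 weeks Ctsd was 0.05 ± 0.18, Cd68 -0.18 ± 0.40 and Col1a1 0.51 ± 0.36, none of them past the threshold. The excess of the difference at 22 weeks was 2.15 ± 0.27 for Ctsd (adjusted p = 2.4e-05), 2.75 ± 0.57 for Cd68 (adjusted p = 0.0032) and 1.62 ± 0.51 for Col1a1 (adjusted p = 0.052).

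**Figure D4:**
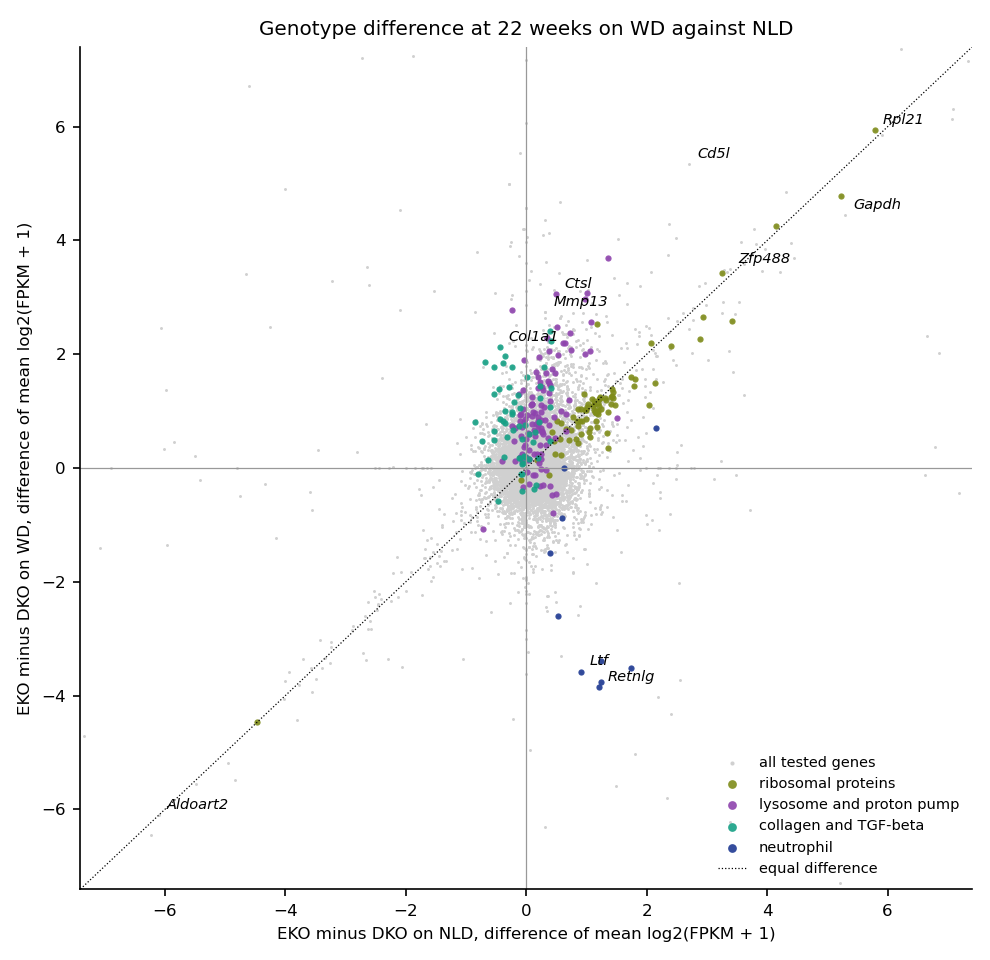
Genotype difference (EKO minus DKO, log2 of FPKM + 1) on NLD on the horizontal axis and on WD on the vertical axis, both at 22 weeks, 1 point per gene, with both axes ending at 7.4 so that 19 genes lie outside them. Ctsl at 3.05 on WD and 0.49 on NLD and Col1a1 at 2.13 and -0.44 lie above the dotted line of equal differences, Rpl21 lies near it at 5.93 and 5.78, and Ltf lies below it.

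Among the genes that the study measured by qPCR are Cd68, Lgals3, Ctsl and Nos2 above. Nnmt, nicotinamide N-methyltransferase, measured 54.5 and 33.1 FPKM in EKO and 10.3, 8.34 and 8.87 FPKM in DKO, and it was called higher at all 3 points compared (2.10 ± 0.29 on WD and 1.58 ± 0.26 on NLD at 22 weeks, 1.67 ± 0.26 on WD at 6 weeks). Elovl3, an elongase of very long chain fatty acids in brown fat and skin, measured 9.18 and 44.9 FPKM in EKO and 89.7, 37.8 and 68.8 FPKM in DKO and did not pass (-1.54 ± 0.78, adjusted p = 0.18). Its value rested on single libraries, with -0.45 without EKO replicate 1 and -2.62 without EKO replicate 3. Ppia, cyclophilin A, the reference gene of the qPCR, was itself higher at 1136, 1051 and 1108 FPKM in EKO and 449.9, 470.4 and 489 FPKM in DKO (difference 1.22 ± 0.14, adjusted p = 3.1e-06), and 1.11 ± 0.14 on NLD at 22 weeks. On WD at 6 weeks the difference of Ppia was 0.15 ± 0.14 and did not pass (adjusted p = 0.85). Other transcripts share 17.3% of the stretches of Ppia. The study reports a close match of its qPCR and RNA-seq values. Tbp, the TATA-binding protein, overlapped between the groups at 7.91 and 7.31 FPKM in EKO and 6.74, 7.87 and 7.15 FPKM in DKO. Srp14, a signal recognition particle subunit, measured 78.8 and 87.1 FPKM in EKO and 52.7, 63.1 and 62.4 FPKM in DKO (difference 0.48 ± 0.10, adjusted p = 0.0017). Apoe, deleted in all of these mice, was at 20.8 and 15.1 FPKM in EKO and 9.05, 10.7 and 8.88 FPKM in DKO, a difference of 0.83 ± 0.32 that did not pass (adjusted p = 0.078), and Apoa1 was at 0.104 and 0 FPKM in EKO and 0.618, 0.667 and 0.308 FPKM in DKO, under the limit for members, so neither level checks the genotype labels.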

How the data were processed

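RNA of whole aortas was sequenced by the authors as unpaired reads of 50 nt. The authors aligned the reads to mm10, and Cuffdiff, SAMtools 0.1.19, TopHat 1.3.2 and Bowtie 0.12.8 stand in the submitters' processing notes. The study's methods name Cufflinks, whose version and gene models are not given in the sources used here. The deposited values are FPKM with 1 column per library. Read counts and depth are unknown, so no count test, counting interval or detection limit is given. Positions on GRCm38.p6 were found for 20722 genes through the symbol and for 2317 through a synonym, and 245 have none.

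Zeros of replicate 2 of EKO on WD at 22 weeks were set to missing. This library stops on chromosome 15, and before the stop 1.56% of the chromosome 15 genes over 5 FPKM elsewhere are at 0. Values were taken as log2(FPKM + 1) and fitted in limma 3.58.1 (R 4.3.3) with 1 mean per group over the 25 libraries of 8 groups, variances moderated with trend and robust estimation, and Benjamini-Hochberg adjustment over the 12797 genes (two-sided, adjusted p under 0.05, no fold limit). The same fit gave the contrast on NLD, the contrast at 6 weeks and the tests of the difference between diets and between times, which share the 6 libraries of the contrast. The fit was tested on simulated data. Tables and figures were made with Python 3.11.15, pandas 2.3.3, numpy 2.4.6 and matplotlib 3.10.9.

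The 63 gene lists were written from general knowledge. The comparison and the lists were chosen with earlier results of these data known. No set test was run, and each list is described by its counts, most also by a median. The shares of all genes, 18.6% higher and 2.93% lower, are the background of each count. Named genes are taken from a rule, and the text names only part of those it gives. The rule takes the 15 largest called changes per direction whose groups do not overlap and whose higher group averages 5 FPKM or more, the 4 members of each list with the smallest p, the 3 highest of each marker list, and the genes of the study's qPCR. Shared stretches are the percent of 50-nt windows of a gene's transcripts (GENCODE M21) found in transcripts of another gene. Promoter windows are those of RefSeq.

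The alternatives were pseudocounts of 0.1 and 5, other filters, scaling, a fit of the 6 libraries, no trend, array weights, a fold limit, zeros kept, a replicate block and each replicate left out. Genes with few shared stretches and Xist as a covariate were added after seeing the data. Replicate numbers do not pair the libraries, since nothing states what they share and the deviations of same-numbered libraries correlated at -0.12, -0.19 and 0.02. One result is not reported here.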

Additional observations from a re-analysis of the deposited data

Results flagged for a closer look

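The following differences between conditions were tested directly in the fit of all libraries. The genotype difference on WD differed from that on NLD at 22 weeks for 562 genes, and the difference at 22 weeks on WD differed from that at 6 weeks for 1149. Of the 95 genes described with their values, 46 are among the 562 and 64 among the 1149. Over all genes the shares were 4.39% and 8.98%. Most of the 95 were chosen by their values on WD at 22 weeks, which enter both tests. That choice raises both counts, so they are no result about these genes. Values below are the genotype difference on WD minus that on NLD at 22 weeks, on the log2 scale, each with an adjusted p under the threshold.

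Lysosome genes and their relatives had a larger difference on WD: Ctsl 2.56, Pld3 2.09, Gla 1.94, Cd63 1.64, Ctsd 1.58, Lgmn 1.56, Ctsb 1.46, Psap 1.31, Atp6v1a 1.14, Clcn7 0.88, Mitf 0.73 and M6pr 0.70. Cathepsin F went the other way, Ctsf -0.55. Lipid genes were Scd3 3.38, Scd4 2.44, Msr1 1.92, Fabp5 1.89, Cxcl16 1.79, Nceh1 1.67, Soat1 1.53 and Npc1 1.03. Immune genes were C3ar1 2.08, Il18bp 1.64, Cd180 1.59, Sirpa 1.54, Tlr13 1.49 and Mfge8 2.14. Igfbp2 was 2.87 and Plau 2.02.

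Matrix genes with a larger difference on WD were Col1a1 2.57, Col3a1 2.54, Eln 2.49, Mmp13 2.43, Tnc 2.35, Postn 2.32, Lum 2.14, Mmp14 2.02, Fn1 2.01, Loxl2 1.71 and Tgfb2 1.59. Genes whose difference was lower on WD than on NLD were Ltf -4.49, Timp4 -2.61, Ddit4 -1.96, Mmp9 -1.89, Gpihbp1 -1.75 and Klf15 -1.51. The contrasts on WD and NLD share no library, while all 46 of these values rest on the same 12 libraries at 22 weeks, so they are not independent of each other.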

How the results depend on the processing

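With the zeros of the partial library kept as deposited 439 genes were higher and 297 lower, the difference between diets held for 25 genes and that between times for 239. The direction then turned for 21 of the 95 genes described, all with a missing value in that library, at log2 differences of -2.61 (Acta2), -0.58 (Apoe), -0.78 (Atp6v1a), -0.86 (C1qb), -0.54 (Clcn7), -1.68 (Ctsd), -0.29 (Ctss), -1.24 (Eln), -0.89 (Folr2), -1.96 (Ftl1), -1.20 (M6pr), -0.81 (Mfge8), -0.31 (Mitf), -0.027 (Mpeg1), -0.43 (Npc1), -0.022 (Pld3), -0.69 (Postn), -0.25 (Sirpa), -0.18 (Spp1), -1.65 (Srp14) and -0.88 (Tfe3), which follows from taking missing values as 0. Higher genes were 825 with the 6 libraries fitted alone, 4233 with array weights, 733 with a fold limit and 1382 among genes with few shared stretches. Lower genes were 132, 869, 166 and 213 under these, 246 with a mean of at least 5 FPKM and 566 after rescaling. The count of genes that differ between diets was 1919 with array weights and 318 with the fold limit, and between times 2619 and 662, and 455 among genes with few shared stretches. Fewer genes can pass where fewer are tested, and the other causes were not tested. With 1 replicate left out, the higher count ranged from 1494 to 2516, the lower from 194 to 398, that between diets from 205 to 1078 and that between times from 794 to 1130. Of the 1957 gene results under an alternative 1831 kept their direction and call, 97 no longer passed, 8 passed newly and 21 turned. Of the 91 called genes 66 held their call under every alternative other than zeros kept. With the replicate number as a block 2227 genes were higher, 347 lower, 389 differed between diets and 1026 between times, and the numbers share only a label. Depth is unknown, so the part of counting error in these values was not tested.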

Other observations

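The genes of this section were chosen after their values were seen, so their tests are descriptive. Pld3, a nuclease of the lysosome that is on none of the lists, measured 215 and 347 FPKM in EKO and 34.4, 49.6 and 42.9 FPKM in DKO, a difference of 2.68 ± 0.28 (adjusted p = 1.2e-06), and both EKO values were far above every DKO value. Mfge8, which bridges apoptotic cells to phagocytes, measured 689.6 and 1423 FPKM in EKO and 132, 250.1 and 158 FPKM in DKO (difference 2.51 ± 0.34, adjusted p = 2.5e-05). Plau, urokinase, which activates plasminogen, measured 23.8, 34.6 and 46.8 FPKM in EKO and 3.16, 6.27 and 6.97 FPKM in DKO (difference 2.48 ± 0.27, adjusted p = 1.3e-06). Tnc, tenascin C of remodelling matrix, measured 51.9 and 30.2 FPKM in EKO and 4.38, 9.99 and 11.9 FPKM in DKO (difference 2.15 ± 0.36, adjusted p = 2.0e-04). In all 4 genes the groups did not overlap, and none was called on NLD at 22 weeks, where the differences were 0.58 ± 0.25, 0.37 ± 0.30, 0.46 ± 0.27 and -0.19 ± 0.32 in that order.

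Among genes that fell, Klf15, a transcription factor of metabolic genes, measured 9.27 and 7.79 FPKM in EKO and 20.5, 24.3 and 16.1 FPKM in DKO (difference -1.15 ± 0.22, adjusted p = 9.4e-04). Ddit4, an inhibitor of mTORC1 that rises in fasting and with glucocorticoids, measured 16.1, 16.2 and 10.0 FPKM in EKO and 32.0, 41.9 and 25.1 FPKM in DKO (difference -1.17 ± 0.29, adjusted p = 0.0054). EKO values of both were below every DKO value. Flt1, a VEGF receptor, measured 10.0 and 9.65 FPKM in EKO and 22.9, 28.2 and 26.9 FPKM in DKO (difference -1.31 ± 0.31, adjusted p = 0.0045), and Btnl9, a butyrophilin-like gene of capillary endothelium, 4.17, 13.4 and 4.79 FPKM in EKO and 16.7, 27.9 and 21.9 FPKM in DKO (difference -1.59 ± 0.40, adjusted p = 0.0062), where EKO replicate 2 was above the other EKO libraries. Neither Flt1 nor Btnl9 is on the endothelial list. In the fit of the 6 libraries alone Btnl9 (adjusted p = 0.0746) and Tnc (adjusted p = 0.0503) did not pass. Hour and feeding state at death were not used here.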
